A study of Homo sapiens with 8 samples.

Results

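Open chromatin after silencing of the hMENA11a isoform was compared with open chromatin after a non-targeting siRNA in H1650, an established human non-small cell lung cancer line. The comparison rests on 4 ATAC-seq libraries, 2 labelled siMena11a and 2 labelled siControl, out of 8 in the series. The peaks of these 4 libraries were joined wherever they overlapped or touched, which gave 38711 regions covering 18.0 Mb of hg19. Of these, 2067 regions (5.34%) were listed in all 4 libraries and are called shared regions below. The siMena11a cells received a mix of siRNAs aimed at the 11a exon, and the siControl cells an ON-TARGETplus non-targeting pool, each at 20 nmol/L with Lipofectamine RNAiMAX. The other libraries, used only for comparison, were from cells given an siRNA pool against hMENA as a whole (siMena) and from untreated cells, 2 of each. All groups are of 1 cell line, and the labels do not say whether replicates came from separate cultures.

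hMENA, the product of ENAH, belongs to the Ena/VASP family of proteins, which bind growing actin filaments and shape protrusions and cell contacts. Its 11a isoform carries an extra exon that is spliced in by epithelial cells, and loss of this isoform accompanies a move towards a mesenchymal, more invasive state. The study asked how a loss of hMENA11a bears on cell-intrinsic pathways such as interferon signalling through RIG-I, a sensor of RNA. ATAC-seq inserts adapters into accessible DNA with a transposase, so promoters and enhancers in use appear as peaks. An siRNA acts on mRNA, so peaks cannot check the knockdown.

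The 4 lists differed widely in length, and the order of the groups differed between replicates. Replicate 1 listed 35472 peaks for siMena11a and 27304 for siControl. Replicate 2 listed 2832 for siMena11a and 5231 for siControl. The lists of replicate 2 therefore set which regions could be shared: the shared regions held 73.0% of the siMena11a replicate 2 list and 39.5% of the siControl replicate 2 list, but 5.83% of siMena11a and 7.57% of siControl replicate 1. They were the stronger regions of replicate 1, with a median percentile of -log10 q of 95.1 in siMena11a and 94.4 in siControl. In replicate 2 the median percentile was 55.7 in siMena11a and 74.3 in siControl.

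A further 2884 regions were listed in 3 of the 4 libraries, and 2472 of these (85.7%) were absent from siMena11a replicate 2 alone. In the siControl replicate 2 list these regions had a median fold of 4.70, against 5.65 at the shared regions. In replicate 1 their median was 9.04 with siMena11a and 8.33 with siControl, against 10.2 and 9.93 at the shared regions. The regions missing from siMena11a replicate 2 thus had lower medians in the other lists. Absence from siControl replicate 2 alone was found for 335 regions, from siMena11a replicate 1 alone for 44 and from siControl replicate 1 alone for 33. The regions absent from a replicate 1 library were weak in the other replicate 1 library, at a median percentile of 24.6 in siMena11a and 15.1 in siControl.

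At the shared regions the fold, the authors' ratio of the tag pileup at a summit to the local background, had close medians in replicate 1 and a lower median with siMena11a in replicate 2. In replicate 1 its median was 10.2 in siMena11a, with quartiles of 8.62 and 11.8, and 9.93 in siControl, with quartiles of 8.28 and 11.5. In replicate 2 it was 4.84 in siMena11a, with quartiles of 4.18 and 5.69, and 5.65 in siControl, with quartiles of 4.70 and 6.82. The median shift of a region, siMena11a minus siControl, was 0.03 in log2 fold in replicate 1 and -0.19 in replicate 2. The median shift in percentile was 0.307 points and -9.60 points. The genome-wide background of the siMena11a and siControl libraries was 0.881 and 0.935 tags per position in replicate 1 and 2.54 and 2.27 in replicate 2. Its part in these medians was not tested. Shifts below are relative to the median shift of the shared regions in the same replicate, unless stated otherwise.

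**Figure D1:**
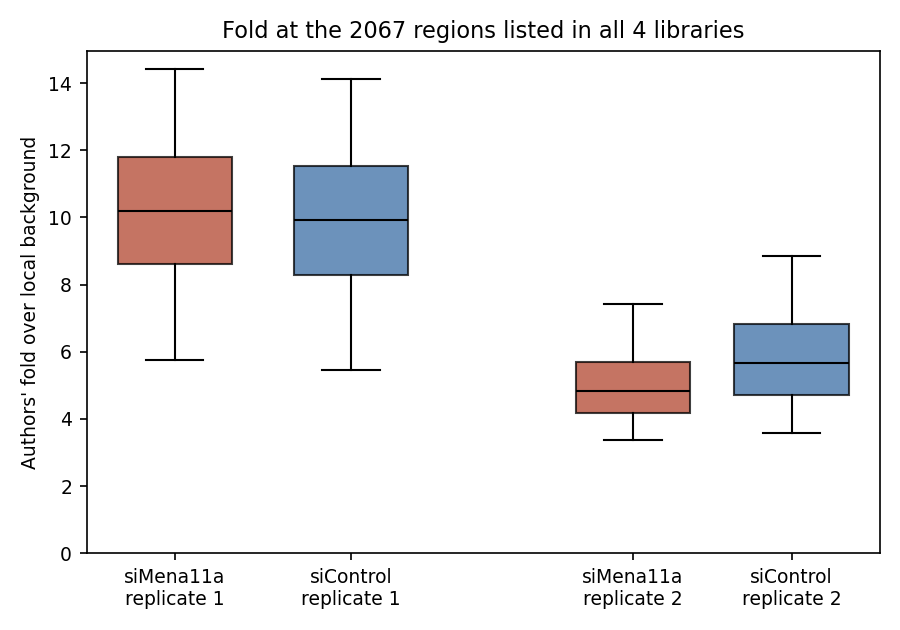
Authors' fold over local background (vertical axis, ratio) at the 2067 shared regions in each of the 4 libraries, with siMena11a in red and siControl in blue. Boxes span the quartiles, lines mark medians and whiskers run from the 5th to the 95th percentile. Medians in replicate 1 are 10.2 for siMena11a and 9.93 for siControl, and those in replicate 2 are 4.84 for siMena11a and 5.65 for siControl.

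The shift of a region in replicate 1 said little about its shift in replicate 2. Across the 2067 shared regions the shifts in log2 fold had a Pearson r of 0.02 and a Spearman rho of 0.02 between replicates, given as a description since all regions share the same libraries. The shifts in percentile had an r of -0.03 and a rho of 0.01. By log2 fold, 1074 regions shifted the same way in both replicates and 991 opposite ways. Rank among the shared regions, which leaves out the rest of each list, gave 1076 and 988 with a rho of 0.05. The pileup in tags gave 1101 and 948 with a rho of 0.06. Which regions are shared still depends on the length of the lists.

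A region was called higher if its shifts in percentile and in fold were both above the median shift in both replicates, and lower in the opposite case. By percentile alone 517 regions (25%) were above the median shift in both replicates and 516 (25%) below it, and by fold alone 537 (26.0%) were above and 537 (26.0%) below. By both measures together 419 regions (20.3%) were higher with siMena11a and 420 (20.3%) lower. In comparison, 406 regions were higher in replicate 1 and lower in replicate 2, and 386 the reverse, by both measures. Same-way shifts thus numbered 839 and opposite ones 792. Removal of the median shift puts as many regions above it as below it in each replicate. Near-equal counts of higher and lower regions follow from this and are no result of the silencing. Without that removal the calls were 243 higher (11.8%) and 573 lower (27.7%). Then 29.8% of calls were higher, against 49.9% with it. Both siMena11a libraries lay above both siControl libraries at 131 regions (6.34%) and below both at 123 (5.95%), after each library was set to its own median. With 2 libraries a group, no exact permutation p can fall below 0.333, so no region was tested. With siMena11a replicate 2 left out, and the other siMena11a library set against both siControl libraries, 877 regions were higher and 1274 lower of 4539 listed in all 3. With siMena11a replicate 1 left out, 650 were higher and 445 lower of 2110. Without siControl replicate 1 the counts were 536 higher and 390 lower of 2100, and without siControl replicate 2 they were 487 and 396 of 2402. Lower regions were thus the larger count only with siMena11a replicate 2 left out. These counts drop the pairing, so they cannot be set beside the paired calls.

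**Figure D2:**
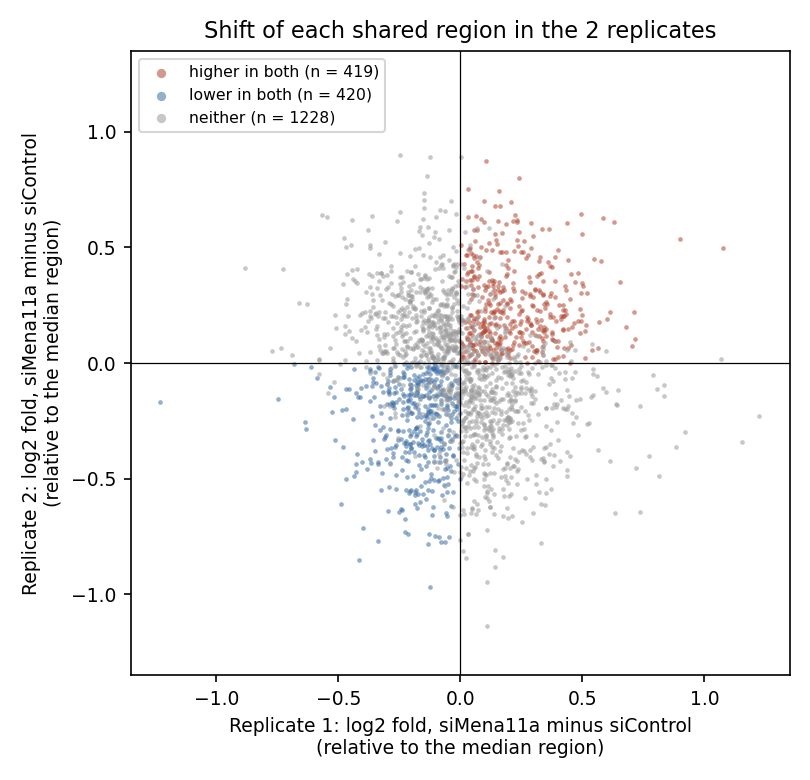
Shift in log2 fold, siMena11a minus siControl, of each shared region in replicate 1 (horizontal axis) and replicate 2 (vertical axis), relative to the median region of the replicate. Red points are the 419 regions called higher, blue points the 420 called lower and grey points the 1228 called neither. The cloud has no slope, with an r of 0.02.

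Larger shifts were only slightly more often the same way than opposite. A move of at least 10 percentile points in rank among the shared regions was seen in both replicates at 198 regions upward (9.58%) and 186 downward (9.0%), and at 324 regions in opposite directions. At 20 points the same-way regions numbered 130 and the opposite ones 102. At 30 points they numbered 33 and 28.

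The size of the shifts was close to the error of counting tags in replicate 1 and below it in replicate 2. The median pileup at the summit of a shared region was 51 tags in siMena11a and 44 in siControl replicate 1, and 22 and 26 tags in replicate 2. From these pileups, the counting error of a log2 ratio was 0.32 (root mean square) in replicate 1 and 0.42 in replicate 2, while the observed SD of the shifts in log2 pileup was 0.32 and 0.34. Shifts beyond 2 counting SDs were seen at 81 regions (3.92%) in replicate 1 and at 31 (1.5%) in replicate 2. No region passed this limit the same way in both replicates, and 1 passed it in opposite directions. As the shifts of replicate 2 spread less than their counting error, few regions could pass there, and the lack of a same-way region says little. The reason for the smaller spread was not tested. Summits are maxima and tags without molecular identifiers are not independent molecules, so the error covers counting alone.

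The 8 higher regions with the largest smaller shift in rank lay on chromosomes 5, 4, 3, 11, 1 and 20. The first spanned 36241399 to 36242620 on chromosome 5, and its fold was 9.13 with siMena11a against 7.99 in siControl replicate 1, and of 4.07 against 3.32 in replicate 2. Its rank among the shared regions was the 80.1 percentile in siMena11a against 43.1 in siControl replicate 1, and 48.6 against 3.92 in replicate 2. Both siMena11a values exceeded the siControl value of the same replicate, but the groups overlapped, as replicate 2 was lower throughout. With the mean over its summits in place of the best summit, the relative log2 shift of this region in replicate 1 turned to -0.12, which ended the call, and that in replicate 2 was 0.50.

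The region on chromosome 11 from 6704231 to 6704931 had the widest difference in replicate 1. Its fold was 13.0 in siMena11a against 6.84 in siControl replicate 1, and 5.08 against 3.98 in replicate 2. The summits held 36 tags in siMena11a and 15 in siControl in replicate 1, and 17 and 12 tags in replicate 2. The relative log2 shifts in fold were 0.90 and 0.54, and in pileup they came to 2.43 and 1.20 counting SDs. It was the only one of the 8 beyond 2 counting SDs, and that in replicate 1 alone.

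Chromosome 5 held another higher region, from 172483744 to 172484645, and chromosome 11 a second one, from 123524727 to 123525752. The remaining 4 spanned 113152444 to 113153738 on chromosome 4, 20227554 to 20228066 on chromosome 3, 144931593 to 144932848 on chromosome 1 and 34541910 to 34542820 on chromosome 20. Over all 8, the fold in replicate 1 ran from 8.62 to 13.0 in siMena11a and from 6.84 to 10.1 in siControl. In replicate 2 it ran from 3.84 to 6.32 in siMena11a and from 3.32 to 5.90 in siControl. The relative log2 shifts were 0.16 to 0.90 in replicate 1 and 0.28 to 0.54 in replicate 2, and the regions were 513 to 1295 bp wide. The mean over summits also ended the call at the second chromosome 5 region, the chromosome 4 region and the chromosome 1 region, where the shift in replicate 1 turned to -0.24, -0.054 and -0.20. Without pairing by replicate number the first chromosome 5 region, the chromosome 11 region from 123524727 and the chromosome 20 region lost their calls. All 8 were listed in both untreated libraries and in siMena replicate 1, and 1 of them, on chromosome 1, in siMena replicate 2.

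Among the lower regions the first lay on chromosome 10 from 101418840 to 101419525. Its fold was 9.68 in siMena11a against 13.1 in siControl replicate 1, and 3.87 against 6.22 in replicate 2. The second, on chromosome 4 from 177191805 to 177192224, had 10.2 in siMena11a against 13.2 in siControl replicate 1, and 5.08 against 9.45 in replicate 2. At this region the replicate 2 summits held 17 tags in siMena11a and 37 in siControl, a relative shift of -2.30 counting SDs, and in replicate 1 they held 47 and 55, a shift of -1.44. In both regions the siMena11a value was the lower one of each replicate.

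The region on chromosome 8 from 109132004 to 109132944 differed mainly in replicate 2. Its fold was 4.6 in siMena11a against 8.23 in siControl in that replicate, with 23 and 53 tags, and 9.69 against 10.3 in replicate 1. Its shift in pileup in replicate 2 was -2.92 counting SDs, the farthest from 0 among the 16 named higher and lower regions. The region on chromosome 12 from 38450373 to 38451147 had 8.37 in siMena11a against 11.0 in siControl replicate 1, and 4.72 against 7.45 in replicate 2. It was beyond 2 counting SDs in replicate 1, at -2.14, and at -1.81 in replicate 2.

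Chromosome 2 held 2 further lower regions, spanning 85173277 to 85173963 and 55277330 to 55278040. The others spanned 119311565 to 119312023 on chromosome 9 and 119199375 to 119200320 on chromosome 4. Over all 8, the fold in replicate 1 ran from 7.10 to 11.5 in siMena11a and from 9.76 to 14.5 in siControl. In replicate 2 it ran from 3.8 to 5.28 in siMena11a and from 5.85 to 9.45 in siControl. These ranges do not overlap, but they cover regions chosen for this shift and include the median log2 shift of -0.185 in that replicate. The relative log2 shifts were -0.49 to -0.12 in replicate 1 and -0.71 to -0.38 in replicate 2. At the chromosome 4 region from 119199375 the mean over summits turned the shift in replicate 1 to 0.24 and ended the call. The rule chose these regions for their shifts, so the differences are given as a description.

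**Figure D3:**
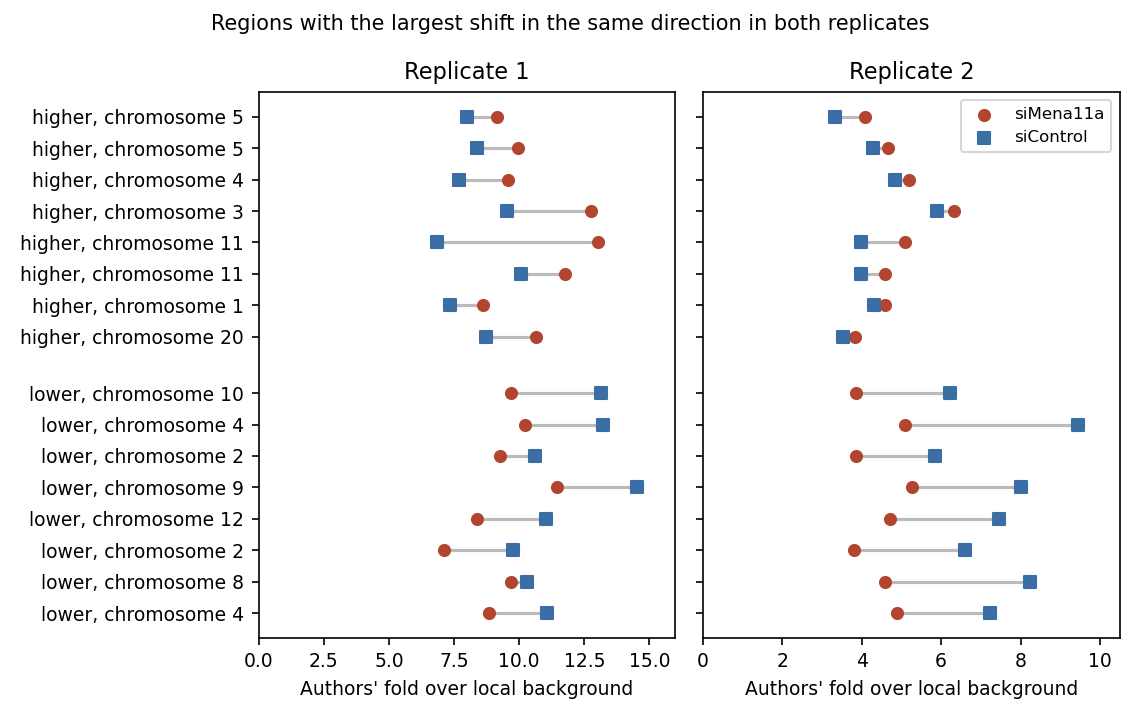
Authors' fold over local background (horizontal axes, ratio) in siMena11a (red circles) and siControl (blue squares) at the 8 higher and 8 lower regions with the largest smaller shift in rank, in replicate 1 (left) and replicate 2 (right). Grey lines join the libraries of 1 replicate. At the lower regions in replicate 2 siMena11a spans 3.8 to 5.28 and siControl 5.85 to 9.45. Folds include the median shift of the replicate, and the regions were chosen for their shifts.

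The 2 shared regions with the highest percentiles in all 4 lists are given for their level. The first spanned 68708117 to 68708484 on chromosome 3, with a fold of 20.5 for siMena11a against 15.9 for siControl replicate 1, and of 11.2 against 11.5 in replicate 2. Relative to the median region its log2 shifts were 0.33 and 0.14, so that it was among the higher regions. Its summits held 56 tags in siMena11a and 50 in siControl in replicate 1, and 53 and 46 tags in replicate 2. The relative shifts in pileup were -0.08 and 1.23 counting SDs, so that by pileup it was not higher in replicate 1. The second, on a contig of chromosome 9 without a set place (9_gl000199_random, 33978 to 34925), had 7.83 against 8.42 in replicate 1 and 5.66 against 6.35 in replicate 2. Their shifts in rank lay between -8.47 and 7.84 points, and the second was called neither higher nor lower.

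The share of calls varied between chromosomes. Chromosome 4 had 34 lower regions of 104 (32.7%, 95% exact Clopper-Pearson interval 23.8 to 42.6) and 16 higher ones (15.4%), against 20.3% each among all shared regions. Chromosome 3 had 50 lower regions of 187 (26.7%, 20.5 to 33.7). Chromosome 20 had 1 lower region of 39 (2.56%, 0.0649 to 13.5) and 9 higher ones, and chromosome 16 had 20 higher regions of 61 (32.8%, 21.3 to 46.0). The intervals cover counting error over regions, which share their libraries, and are not adjusted for the number of chromosomes.

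Medians by chromosome were also taken over all regions of a pair, called or not. Of 23580 regions listed in both replicate 1 libraries, those on chromosome 4 had a median shift in log2 fold of -0.09 (n = 1100), the lowest of the 23 chromosomes. The highest were chromosome 19 at 0.12 (n = 890), known as the most gene-dense human chromosome, and chromosome 22 at 0.11 (n = 359). In the 2286 regions listed in both replicate 2 libraries, 90.4% of them shared regions, the median was -0.10 on chromosome 4 (n = 117) and 0.23 on chromosome 19, there over 18 regions. Chromosome 22 had a median of 0.02 in that replicate (n = 8). The lowest there was chromosome X at -0.25 (n = 16), against -0.0019 in replicate 1 (n = 557). Over the 23 chromosomes the medians of both replicates had an r of 0.51 and a rho of 0.49, and over the 19 chromosomes with at least 20 regions in each pair an r of 0.50 and a rho of 0.44. Over the shared regions alone, the medians of the 19 chromosomes with at least 20 of them had an r of 0.40. Both medians had the same sign on 11 of these chromosomes. Single shared regions had a rho of 0.02. These correlations describe medians that share their libraries. These shifts are small beside the spread of single regions, whose SD in log2 fold was 0.24 in replicate 1 and 0.30 in replicate 2. Base composition was not analysed here.

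**Figure D4:**
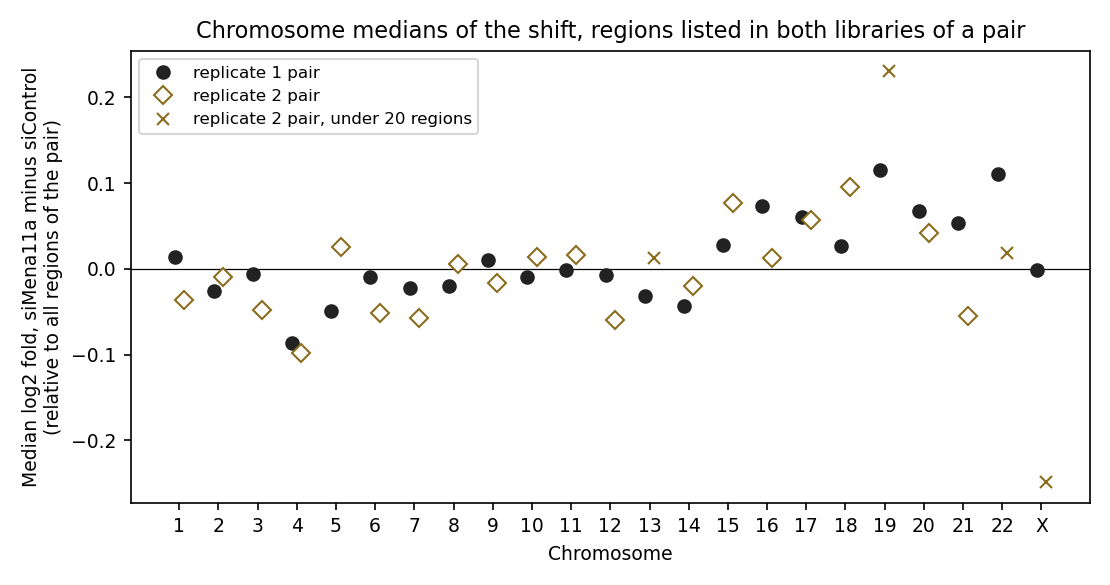
Median shift in log2 fold, siMena11a minus siControl (vertical axis), by chromosome (horizontal axis), over regions listed in both libraries of replicate 1 (filled circles) or replicate 2 (diamonds, or crosses under 20 regions), relative to all regions of that replicate. Chromosome 4 is at -0.09 and -0.10 and chromosome 19 at 0.12 and 0.23.

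Contigs outside the assembled chromosomes moved in opposite directions in the replicates. They held 64 shared regions, with a median relative shift in log2 fold of -0.09 in replicate 1 and 0.15 in replicate 2. Of these 64 regions, 17 were called higher (26.6%, 95% exact interval 16.3 to 39.1) and 3 lower (4.69%, 0.977 to 13.1), against 20.3% each among all shared regions. Contigs held 4.06% of the higher, 0.714% of the lower and 3.10% of all shared regions. Without removal of the median shift they held 3.14% of the lower ones.

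Higher and lower regions had overlapping ranges of width, and their neighbours shared the call about as often as any adjacent regions. The median width was 807 bp for higher regions, with quartiles of 632 and 964 bp, and 846 bp for lower regions, with quartiles of 686 and 1001 bp, against 821 bp for all shared regions. The width of a merged region depends on the 4 lists themselves. The peaks of untreated replicate 1, which the calls did not use, were 707 bp wide at higher and 742 bp at lower regions, against 721 bp at all. In untreated replicate 2 the widths were 630, 675 and 649 bp.

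Peak width within a pair moved with the length of the lists. In replicate 1 the median peak at a shared region was 769 bp in siMena11a and 695 bp in siControl, and in replicate 2 it was 316 and 406 bp. The strongest summit of siMena11a lay within 50 bp of that of siControl at 74.8% of regions in replicate 1 and 55.9% in replicate 2.

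Clustering was examined on 215 pairs of adjacent shared regions within 50 kb of each other. The same call, including neither, was given to both members of 43.7% of the pairs (95% exact interval 37.0 to 50.6), and of 44.2% of all 2025 adjacent pairs on a chromosome. Within 50 kb, 5 pairs were higher together, 14 lower together and 9 opposite. Among all 2025 adjacent pairs the numbers were 98, 87 and 142. Of the higher regions 15.5% had a shared region within 50 kb, of the lower regions 18.8% and of all 17.9%.

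Libraries that took no part in the calls showed where these regions stand in other cells. The calls subtract siControl. Relative to each library's own median, the median log2 fold at higher regions was -0.18 and -0.24 in siControl replicates 1 and 2, against 0.03 and 0.07 in siMena11a. At lower regions it was 0.12 and 0.15 in siControl, against -0.07 and -0.08 in siMena11a. Untreated fold correlated with siControl fold, so the untreated values are not independent of the calls. The fold in untreated cells was lower at higher regions than at lower ones. In untreated replicate 1 the median was 10.8 at higher and 11.3 at lower regions, against 11.1 at all shared regions, and in untreated replicate 2 it was 8.82, 9.40 and 9.19. Sorted by the fold in untreated replicate 2, the lowest quartile of shared regions held 26.0% higher calls (133 of 512 regions) and 14.3% lower calls (95% exact interval 11.4 to 17.6). The highest quartile held 13.6% higher calls (10.8 to 16.9) and 22.8% lower calls (19.2 to 26.7). By untreated replicate 1 the lowest quartile held 22.9% higher and 16.9% lower calls, and the highest quartile 16.9% and 22.7%.

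**Figure D5:**
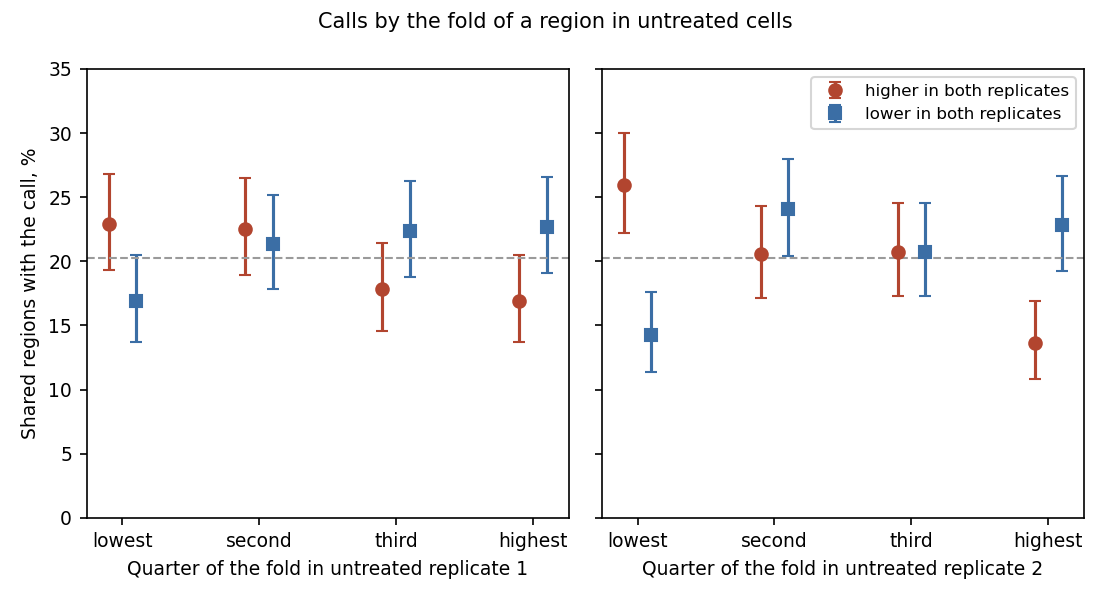
Share of shared regions called higher (red circles) or lower (blue squares) with siMena11a in both replicates (vertical axis, %), by quartile of the fold in untreated replicate 1 (left) and 2 (right). Bars are 95% exact intervals and the dashed line marks 20.3%, the share over all shared regions; higher calls run from 26.0% in the lowest to 13.6% in the highest quartile of untreated replicate 2.

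The fold in untreated cells correlated slightly more with siControl than with siMena11a of the same number. The Spearman rho of fold with untreated replicate 1 over 2011 shared regions was 0.73 for siMena11a and 0.75 for siControl replicate 1. With untreated replicate 2, over 2047 regions, it was 0.43 for siMena11a and 0.51 for siControl replicate 2. Between the groups it was 0.76 in replicate 1 and 0.64 in replicate 2. Libraries of the same group were less alike, with a rho of 0.35 between the siMena11a and 0.48 between the siControl replicates.

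Silencing of hMENA as a whole, set against untreated cells, shares no library with the comparison above. Untreated cells received no siRNA, so transfection and silencing cannot be told apart in this contrast. In replicate 1 the siMena minus untreated shift, relative to its own median over 1947 regions, was -0.02 in log2 fold at higher regions and -0.03 at lower ones. In replicate 2 it was 0.22 at the 104 higher regions listed in both libraries and -0.12 at the 105 lower ones, among 592 regions in all. With calls made by rank among the shared regions these values were 0.09 and -0.09, and with calls relative to a running median 0.09 and -0.07. With calls made without removal of the median shift they were 0.27 and -0.03. The rho between both contrasts was -0.07 in replicate 1 and 0.32 in replicate 2. The siMena replicate 2 library listed 609 (29.5%) of the shared regions and had the highest background of the series, at 2.88 tags per position. Over these 609 regions its fold had a rho of 0.71 with siMena11a and of 0.62 with siControl of the same replicate. The part of the background in these values was not tested.

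Genes and DNA sequence at these positions were not analysed here, since no hg19 annotation or genome was used. Interferon, antigen presentation and epithelial loci are therefore not named.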

How the data were processed

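ATAC-seq peak lists of single libraries, not pooled, were analysed. The submitters' processing notes name FastQC 0.11.5, Bowtie2 2.3.4.2, SAMtools 1.7, MACS2 2.2.5 and hg19. Trimming, duplicate removal and the transposase shift are not given in the sources used here. The deposited score of a summit is 10 times its −log10 q, rounded down, in at least 99.98% of entries. The deposited −log10 p and −log10 q and the authors' fold, a ratio of summit pileup plus 1 to local background plus 1, were used as given, and the lists end at a q of 0.01. Files hold no read totals, so tags per summit and the genome-wide background were recovered from fold and −log10 p, within 0.001 for 100% of entries.

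A peak is 1 distinct interval, with its best summit. Percentiles are ranks of −log10 q within a list. Differences are siMena11a minus siControl within a replicate number. Named were the 8 higher and 8 lower regions whose smaller shift in rank over both replicates was largest, and the 2 of highest percentile in all 4 lists. Members, rules and gene lists were chosen with earlier results of these data known. The gene lists were not used, as no hg19 annotation was at hand. Calls were checked on simulated data with less noise than the real shifts and a large shift planted alike in both replicates. That check asked only whether a planted region was called in the reverse direction. It tests the code and says nothing on how reliable the calls are here. Alternatives were other joining rules, thresholds, list lengths, centrings, measures and left-out libraries. Coordinates count from 1. Scripts ran under Python 3.11.15 with SciPy 1.17.1 for intervals, pandas 2.3.3 and numpy 2.4.6 for tables, and matplotlib 3.10.9 for plots.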

Additional observations from a re-analysis of the deposited data

How the results depend on the processing

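The 2067 shared regions became 3375 in bins of 500 bp and 1004 in lists of equal length, with 675 and 198 higher and 685 and 191 lower regions. Peaks with a −log10 q of at least 5 left 1387 shared regions, of which 259 were higher and 258 lower. Without centring, 243 were higher, 3.14% of lower regions lay on contigs, and the siMena minus untreated shift at lower regions in replicate 2 was -0.033 in log2 fold and that in replicate 1 turned to 0.0065. Without the replicate block, 131 were higher and 123 lower, and 29.6% of higher and 28.3% of lower calls were kept. Replicates share only a number, though the deviations of same-numbered libraries from their group means correlated at 0.59. With 1 library left out, pairing was dropped, and the single library of 1 group was set against both of the other. This gave 2100 to 4539 shared, 487 to 877 higher and 390 to 1274 lower regions. As the rule differs, these counts cannot be set beside the paired calls. Under the 3 scalings tried for them, the median width was 776 to 812 bp at higher and 852 to 856 bp at lower regions. The share of neighbours within 50 kb with the same call was 39.5% to 47.9%. The limit set for widths was the SD of median peak widths over the 4 libraries. That SD includes the difference between replicates, so staying within it does not show that widths are stable. All 16 named calls were kept without centring, relative to a running median and by summit pileup, but not with the mean over summits or without the block. Percentile alone, fold alone and rank also kept them, but had to, since the calls and the choice of regions rest on these measures. With the mean over summits 4 of 8 higher and 7 of 8 lower named calls were kept, and the smaller shift turned to -0.12 and -0.24 at the chromosome 5 regions, -0.054 at the higher chromosome 4 region, 0.24 at the lower one from 119199375 and -0.20 on chromosome 1. The cause was not tested. Without the block 5 and 8 calls were kept. At a −log10 q of at least 5, all 4 higher and 6 lower regions still listed kept theirs. Tag counts of 22 to 51 per summit limit what a shift can show.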

Other observations

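Runs of neighbouring shared regions with the same call were looked up after the values had been seen. There were 7 runs of at least 4 regions, 4 of them lower and 3 higher, and the longest had 5 regions. Higher and lower calls each covered 20.3% of the shared regions, and how many such runs those shares alone would give was not worked out. The runs are therefore not read as clustering. A lower run on chromosome 7 from 20369698 to 20838307 held 5 regions within 0.469 Mb. At its last region, from 20837331 to 20838307, the fold was 9.40 in siMena11a against 10.8 in siControl replicate 1, and 3.05 against 4.53 in replicate 2. The regions from 20380337 to 20380879 and from 20392291 to 20393090 each had 12.3 in siMena11a against 12.2 in siControl replicate 1, so that they were lower there only relative to the median region. No region of this run lay beyond 2 counting SDs in either replicate. A second lower run of 5 regions, on chromosome 4, spread over 10.0 Mb.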
